A study of Mus musculus with 9 samples.

Results

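Interferon-stimulated genes were followed across sorted myeloid cells from the quadriceps of *mdx* mice, which lack dystrophin and model Duchenne muscular dystrophy. The genes were chosen by symbol and their known response to interferons, with earlier results of these data known. All 42 were among the 50559 symbols listed. The 3 groups were *mdx* mice given vehicle (drinking fluid with sucralose), the mineralocorticoid receptor antagonist spironolactone, or the glucocorticoid prednisolone in their drinking fluid for 7 days, all 4.5 weeks old at collection. Each group had 3 libraries, and the cells of each library were sorted as CD45+CD11b+ cells (leukocytes of the myeloid lineage) from the pooled quadriceps of 3 mice. Every mouse carried the *mdx* mutation, dead cells were not separated from live ones, and male and female mice went into each group, so the values describe mixed myeloid cells of dystrophic muscle and give no healthy reference. Where a value differs between libraries, fewer cells of a type and less RNA per cell cannot be told apart.

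Type I interferons (the alpha and beta interferons) bind the receptor made of IFNAR1 and IFNAR2, and interferon gamma binds IFNGR1 and IFNGR2. The kinases JAK1, JAK2, and TYK2 then activate STAT proteins. The complex that holds STAT2 and IRF9 binds the interferon-stimulated response element (ISRE), and interferon gamma acts mainly through the gamma-activated site (GAS). The genes that follow code for antiviral effectors, nucleic acid sensors, GTPases that act on vacuoles of intracellular microbes, and inhibitors that close the loop. In dystrophic muscle, infiltrating monocytes and macrophages clear necrotic fibers, and both respond to interferons. Glucocorticoids are known to restrain many inflammatory genes in such cells.

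The libraries were close in depth, with 31469815 to 32943512 counts on genes. Between libraries of 1 group, counts differed far more than by sampling (chi-square per degree of freedom 13.3 to 42.3), so none was a repeat of another. The lowest count of any interferon-stimulated gene in a library was 107 (*Ifi44* in prednisolone 2), and all 42 passed the filter on low counts along with 16576 other genes. Together they took 0.382%, 0.493%, and 0.618% of the counts in vehicle 1, 2, and 3, 0.555%, 0.493%, and 0.424% in spironolactone 1, 2, and 3, and 0.395%, 0.280%, and 0.436% in prednisolone 1, 2, and 3. Markers of macrophages (8 genes, summed level 6974 to 9562 CPM) stood high in every library, as did the gate genes *Ptprc* (CD45) and *Itgam* (CD11b, summed level 1523 to 2146 CPM). CPM are counts scaled to a common library size with TMM, and levels in CPM are compared between libraries only.

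Interferons reach such genes through short elements near the start site. RefSeq promoters (build GRCm38.p6, 250 bases before to 50 after the start) were at hand for 33 of the 42. An ISRE core (GAAA, any 2 bases, GAAA), searched on both strands, stood in 21 of the 33 (63.6%) and in 3.99% of all 27025 genes with a promoter of this length. A GAS core (TTC, any 3 bases, GAA), which reads the same on both strands, stood in 11 of the 33 (33.3%) and in 9.55% of all genes. Both motifs were found in 7 genes, and neither in 8. In *Bst2* and *Ifitm3* the motifs shared bases. The windows below are those of the genes whose values the results turn on and of the IFIT genes and *Isg15*, the textbook targets. They are given 5′ to 3′ along the gene's own strand, with the motif bases in capitals (an ISRE core on the opposite strand shows as TTTC, any 2 bases, TTTC).
Irf1: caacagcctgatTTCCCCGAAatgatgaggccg
Gbp3: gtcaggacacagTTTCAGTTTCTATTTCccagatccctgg
Socs1: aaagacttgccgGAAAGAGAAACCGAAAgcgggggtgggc
Bst2: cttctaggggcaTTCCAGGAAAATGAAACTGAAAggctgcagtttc
Isg15: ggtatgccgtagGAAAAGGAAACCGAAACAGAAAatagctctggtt
Ifit1: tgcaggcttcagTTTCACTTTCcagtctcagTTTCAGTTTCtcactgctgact
Ifit2: catgggagcTTCCTGGAAgaatggataaaa
Ifit3: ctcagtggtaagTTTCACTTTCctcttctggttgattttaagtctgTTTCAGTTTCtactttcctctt
Ifit3b: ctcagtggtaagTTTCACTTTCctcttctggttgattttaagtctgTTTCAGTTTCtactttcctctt

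The *Irf1* window at chr11:53769912-53769944 (+ strand) holds a GAS core at -90 to -82 from the start and no ISRE core. The *Gbp3* window at chr3:142559987-142560026 (+ strand) and the *Socs1* window at chr16:10785592-10785631 (- strand) each hold 2 overlapping ISRE cores. In the *Bst2* window at chr8:71537575-71537620 (- strand) the GAS core runs into the first of 2 ISRE cores. *Isg15*, at chr4:156200863-156200908 (- strand), has 3 overlapping ISRE cores, and *Ifit1*, at chr19:34640773-34640825 (+ strand), has 2 that stand apart. *Ifit2*, at chr19:34550444-34550473 (+ strand), has a GAS core at -241 to -233 and is the 1 IFIT gene with no ISRE core in its promoter. The windows of *Ifit3* (chr19:34583361-34583428, + strand) and *Ifit3b* (chr19:34607757-34607824, + strand) are identical over 68 bases, since these genes are near copies, and the counting could have split or dropped reads that fit both. By role, all 4 guanylate-binding protein promoters, all 3 sensor promoters in the table, and 3 of 4 IFIT promoters held the ISRE core, against 1 of 4 transcription factor promoters. A match describes the letters only. *Oas2*, *Iigp1*, *Usp18*, *Ifi204*, *Dhx58*, *Parp14*, *Zbp1*, *Mx1*, and *Mx2* were not in the promoter table.

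On a scale that also corrects for gene length (TPM, mean of all libraries), *Ifitm3*, a membrane protein that blocks virus entry, stood highest at 1677. *Bst2*, or tetherin, which holds budding virus at the cell surface, followed at 501, then *Irf7* at 469.5, *Ifi204* at 366, and *Isg15* at 325. At the low end stood *Socs1* at 9.89, *Iigp1* at 6.72, and *Ifi44* at 5.08. *Oas2* and *Oasl2*, both at 183 TPM, did not differ beyond their spread.

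**Figure D1:**
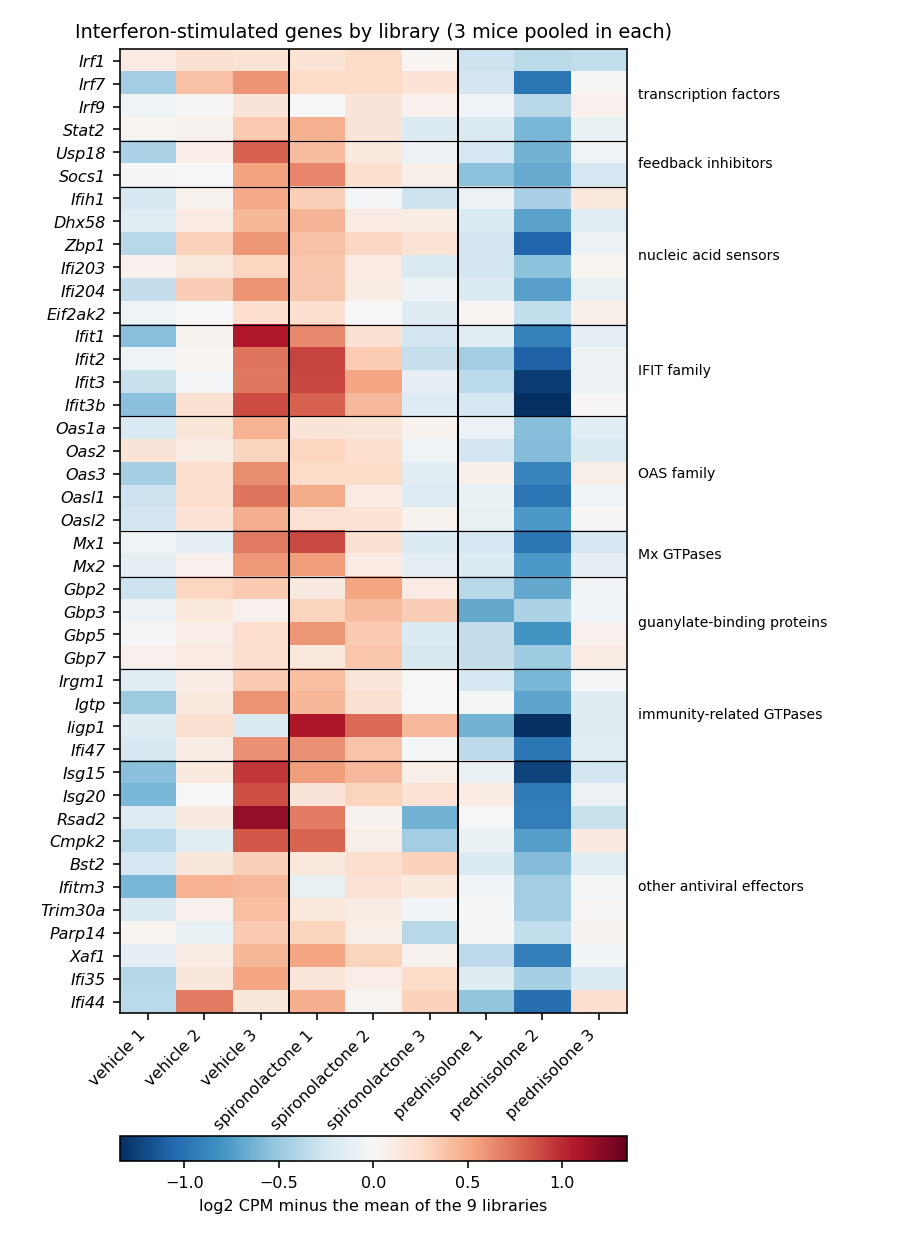
Heat map of the 42 interferon-stimulated genes (rows, grouped by role) in the 9 libraries (columns); color is log2 CPM minus the mean of the 9 libraries for that gene. The column of prednisolone 2 is the bluest, being the lowest of all 9 libraries for 39 genes, and vehicle 3 is the highest for 23.

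Prednisolone was compared with vehicle to ask what a glucocorticoid does to these genes in myeloid cells of dystrophic muscle. All 42 had a log2 fold change below 0, with a median of -0.49 and a range of -0.85 to -0.13, beside a median of -0.01 over all 16618 genes tested, of which 52.2% were below 0. *Irf1* and *Oas2* fell. These 2 of 42 passed the edgeR quasi-likelihood test (adjusted P under 0.05), and the background was 0.758% of all genes called lower and 1.76% called in either direction. DESeq2 called the same 2 beside 4.44% of all genes, a share near the 4.76% of the 42. At an unadjusted P under 0.05, 17 were lower (7.07% of all genes), and in 8 every prednisolone library lay below every vehicle library (9.27% of all genes). The count of 2 changed with the libraries in the fit. It was 0 without prednisolone 2, prednisolone 3, or vehicle 2 (0.402%, 0.694%, and 0.741% of all genes called). The count was 1 without vehicle 3, spironolactone 2, or prednisolone 1, and 6 without vehicle 1 (4.83% of all genes called). The 17 became 4 without vehicle 3 or without prednisolone 2, 8 without prednisolone 1, and 10 without vehicle 2. They became 23 without vehicle 1 and 22 without prednisolone 3. The median was -0.30 without vehicle 3, where 2 of the 42 were above 0. Without vehicle 1, prednisolone lay below vehicle in every library for 34 of the 42, beside 20.6% of all genes. This number was 8 without vehicle 2 and 9 without vehicle 3, beside 13.1% and 14.1% of all genes.

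Spironolactone was compared with vehicle in the same way. The 42 genes split, 24 above 0 and 18 below, with a median log2 fold change of 0.02 and a range of -0.36 to 0.83 beside 0.00 over all genes, of which 50.0% were above 0. None passed the edgeR test, against a background of 0.0181% of all genes called, and 2 (*Iigp1* and *Gbp3*) reached an unadjusted P under 0.05 as higher (5.21% of all genes). None passed with DESeq2 (1.76% of all genes called) or limma-voom (0 of all genes called). In *Iigp1* and *Gbp3* all spironolactone libraries lay above all vehicle libraries (6.99% of all genes). The direction of the rest hung on single libraries, with 35 of 42 below 0 without vehicle 1 and 41 of 42 above 0 without vehicle 3, and medians of -0.13 and 0.24. Without spironolactone 1 the median was -0.05 and 31 were below 0, and without spironolactone 3 it was 0.09 and 37 were above 0.

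Spironolactone was also set against prednisolone, the comparison of the drugs themselves, which shares the prednisolone libraries with the first. All 42 were above 0, with a median log2 fold change of 0.49 and a range of 0.09 to 1.42, beside a median of 0.03 over all genes, of which 53.4% were above 0. *Irf1*, *Gbp3*, *Iigp1*, *Oas2*, *Socs1*, and *Bst2* were higher with spironolactone. These 6 of 42 passed the test, and the background was 2.38% of all genes called higher and 5.17% called in either direction. At an unadjusted P under 0.05, 18 were higher (11.4% of all genes), and in 22 every spironolactone library lay above every prednisolone library (15.1% of all genes). Leaving out prednisolone 2 left only *Iigp1* past the threshold, and leaving out prednisolone 1 left 2. The count was 3 without spironolactone 1 or 2, and 4 without spironolactone 3 or prednisolone 3. It rose to 8 without vehicle 1 (11.1% of all genes called) and to 10 with DESeq2 (10.5% of all genes called). Of the 42, 39 were above 0 without spironolactone 1 and 40 without prednisolone 2, where the 18 became 9 and 10. The 18 became 24 without prednisolone 3.

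**Figure D2:**
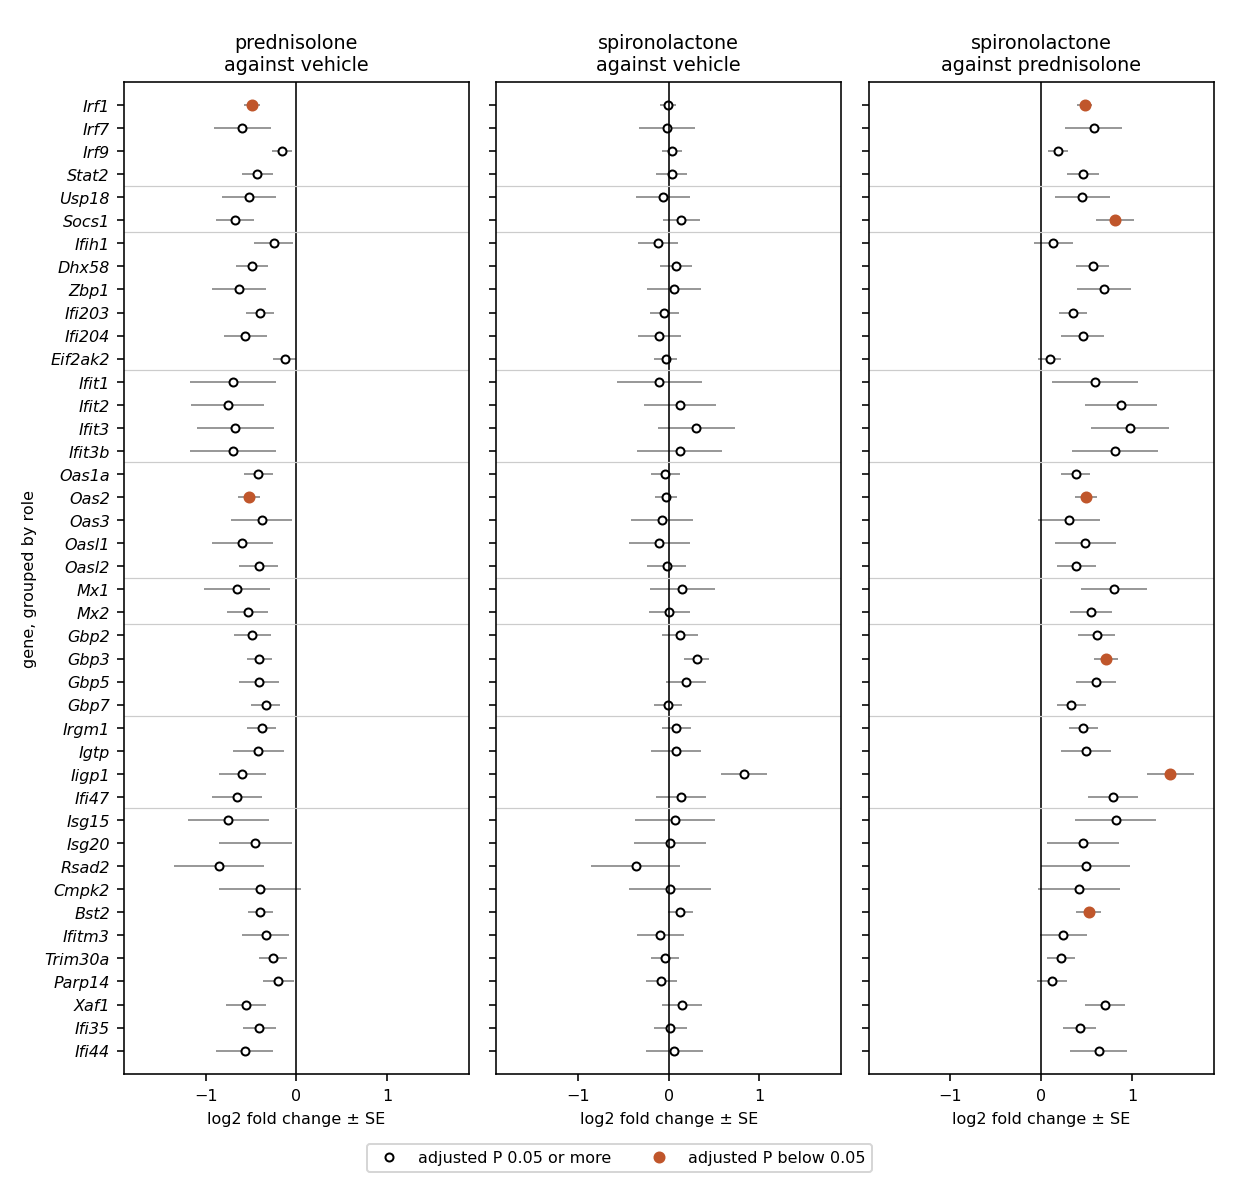
Log2 fold change ± SE of each of the 42 genes (rows, grouped by role) in the 3 comparisons (panels), with filled points for an adjusted P below 0.05. All 42 points lie left of 0 for prednisolone against vehicle and right of 0 for spironolactone against prednisolone, while 24 lie right and 18 left of 0 for spironolactone against vehicle.

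Among the 4 transcription factors, *Irf1*, which drives both type I and type II interferon targets, had the smallest spread within groups of the 42. *Irf1* (chr11:53660812-53669200, + strand, GRCm39) stood at 85.6, 91.9, and 90.1 CPM in vehicle 1, 2, and 3, 90.0, 95.1, and 81.0 CPM in spironolactone 1, 2, and 3, and 65.8, 62.1, and 63.2 CPM in prednisolone 1, 2, and 3. Every prednisolone library lay below the 6 others, and vehicle and spironolactone overlapped. With prednisolone, *Irf1* fell by 28.6% (log2 fold change -0.49, adjusted P = 0.0122). Against prednisolone, spironolactone libraries were 1.39-fold higher (log2 fold change 0.48, adjusted P = 0.00781), and against vehicle the log2 fold change was -0.01. The fall missed the threshold without prednisolone 2 (adjusted P = 0.0985), prednisolone 3 (0.0568), or vehicle 2 (0.0527), and the difference between the drugs missed it without prednisolone 2 (0.0501). The log2 fold change of the fall stayed between -0.51 and -0.46 under all alternatives. *Irf1* overlaps 3 predicted genes on the opposite strand, and the strand setting of the counting is not given in the sources used here, so reads of these cannot be told apart.

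*Irf7*, the master regulator of interferon alpha genes and the most abundant factor of this group per length, was less even. It stood at 274, 499, and 579 CPM in vehicle 1, 2, and 3, 453, 453, and 432 CPM in spironolactone, and 319.8, 192, and 384 CPM in prednisolone libraries. Vehicle 1 was below all 3 spironolactone libraries and below prednisolone 1 and 3, so vehicle overlapped both drugs, while spironolactone lay above prednisolone in every library. The log2 fold changes were -0.59 against vehicle for prednisolone (adjusted P = 0.456) and 0.58 between the drugs (adjusted P = 0.325). *Stat2* and *Irf9*, which are part of the ISRE-binding complex, had log2 fold changes of -0.43 and -0.15 with prednisolone, without passing the test. *Stat2* had all 3 prednisolone libraries below vehicle. *Irf9* overlaps *Rnf31* on the same strand and *Irf7* overlaps *Phrf1* on the opposite strand, so that their counts are less certain.

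The feedback inhibitors were *Socs1*, which blocks JAK kinases, and *Usp18*, which strips ISG15 from proteins and shields IFNAR2. *Socs1* (chr16:10600104-10603875, - strand, GRCm39) stood at 7.09, 7.14, and 10.4 CPM in vehicle, 11.3, 8.31, and 7.60 CPM in spironolactone, and 4.89, 4.49, and 6.09 CPM in prednisolone libraries 1, 2, and 3. Prednisolone libraries were the lowest 3 of the 9. *Socs1* was 1.76-fold higher with spironolactone than with prednisolone (log2 fold change 0.81, adjusted P = 0.0411), and its log2 fold change with prednisolone against vehicle was -0.67 (adjusted P = 0.140). Leaving out any of the 6 drug-treated libraries moved the difference between the drugs out of significance, with adjusted P of 0.0607 (without prednisolone 3), 0.0658 (spironolactone 3), 0.0777 (spironolactone 2), 0.113 (spironolactone 1), 0.143 (prednisolone 1), and 0.158 (prednisolone 2). It was also lost with limma-voom (0.0570) and with library totals (0.0508). *Socs1* overlaps 2 predicted genes on the opposite strand.

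*Usp18* stood at 30.2, 43.1, and 70.0 CPM in vehicle, 54.1, 44.4, and 38.4 CPM in spironolactone, and 34.5, 26.1, and 39.3 CPM in prednisolone libraries. Vehicle 3 was the highest and vehicle 1 was below 2 prednisolone libraries, so the groups overlapped. Its log2 fold changes were -0.52 (prednisolone against vehicle) and 0.45 (between the drugs), and neither passed the test.

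Of the 6 nucleic acid sensors, none passed the test in any comparison. These detect foreign or misplaced DNA and RNA. *Ifi204*, a DNA sensor of the PYHIN family, was the most abundant per length, at 232, 364, and 439.6 CPM in vehicle, 374, 311, and 277 CPM in spironolactone, and 256, 175, and 271 CPM in prednisolone libraries. Vehicle 1 lay among the prednisolone libraries, and spironolactone lay above prednisolone in all 3. The log2 fold change of *Ifi204* was -0.56 for prednisolone against vehicle (adjusted P = 0.321) and 0.46 between the drugs (adjusted P = 0.294). *Zbp1*, a sensor of Z-form nucleic acid that can start cell death, had log2 fold changes of -0.63 and 0.69. *Dhx58* (LGP2) gave -0.49 and 0.57, and *Ifi203* gave -0.40 and 0.35. *Eif2ak2* (PKR) and *Ifih1* (MDA5), both RNA sensors, had the smallest differences, -0.13 and -0.25 with prednisolone.

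The 4 IFIT genes, whose products bind viral RNA, had log2 fold changes of -0.75 to -0.67 with prednisolone and 0.60 to 0.98 between the drugs, and none passed the test. *Ifit3*, the most abundant of them per length, stood at 64.0, 76.9, and 128 CPM in vehicle, 146, 113, and 73.0 CPM in spironolactone, and 60.9, 32.6, and 75.0 CPM in prednisolone libraries. Spironolactone 1 was the highest and prednisolone 2 the lowest, and all 3 groups overlapped. *Ifit3* had a log2 fold change of 0.98 between the drugs, larger than those of *Irf1* and *Oas2*, with an SE of 0.42 and an adjusted P of 0.237. *Ifit3b* gave 0.82 ± 0.47 (SE).

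The OAS family is named for enzymes that make 2-5A and so switch on RNase L. In this family *Oas2* was the 1 member of 5 that passed the test. *Oas2* (chr5:120868398-120887933, - strand, GRCm39) stood at 202, 193, and 220.0 CPM in vehicle, 219, 210.2, and 172 CPM in spironolactone, and 150.0, 120.3, and 157 CPM in prednisolone libraries 1, 2, and 3. Every prednisolone library lay below every other library, and vehicle and spironolactone overlapped. *Oas2* fell by 30.4% with prednisolone (log2 fold change -0.52, adjusted P = 0.0393) and was 1.41-fold higher with spironolactone than with prednisolone (log2 fold change 0.49, adjusted P = 0.0304). The fall missed the threshold without prednisolone 1 (adjusted P = 0.0986), prednisolone 2 (0.215), prednisolone 3 (0.0658), vehicle 2 (0.0790), vehicle 3 (0.131), or spironolactone 2 (0.0634), and with library totals in place of TMM (0.0582), robust=FALSE (0.0536), or a fit of only the 2 groups (0.0514). The difference between the drugs missed it without prednisolone 1 (0.0820), prednisolone 2 (0.133), spironolactone 1 (0.0778), or spironolactone 2 (0.0994). With prednisolone against vehicle the log2 fold change of *Oas2* ran from -0.60 to -0.41 under all alternatives. *Oas1a*, *Oas3*, *Oasl1*, and *Oasl2* had log2 fold changes of -0.42, -0.38, -0.59, and -0.41 with prednisolone, with vehicle 1 below at least 1 prednisolone library in each. *Oas2* overlaps 2 predicted genes, also on the opposite strand.

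The Mx GTPases trap viral ribonucleoproteins. *Mx1* stood at 69.8, 67.2, and 118 CPM in vehicle, 134, 83.9, and 64.2 CPM in spironolactone, and 62.2, 37.3, and 62.1 CPM in prednisolone libraries. Every prednisolone library lay below every other library. The log2 fold change of *Mx1* with prednisolone was -0.66 ± 0.36 (SE, adjusted P = 0.485), and that between the drugs was 0.81 (adjusted P = 0.247). *Mx2* gave -0.54 and 0.55, with the same order of groups. Spread within vehicle and spironolactone was wide for both.

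**Figure D3:**
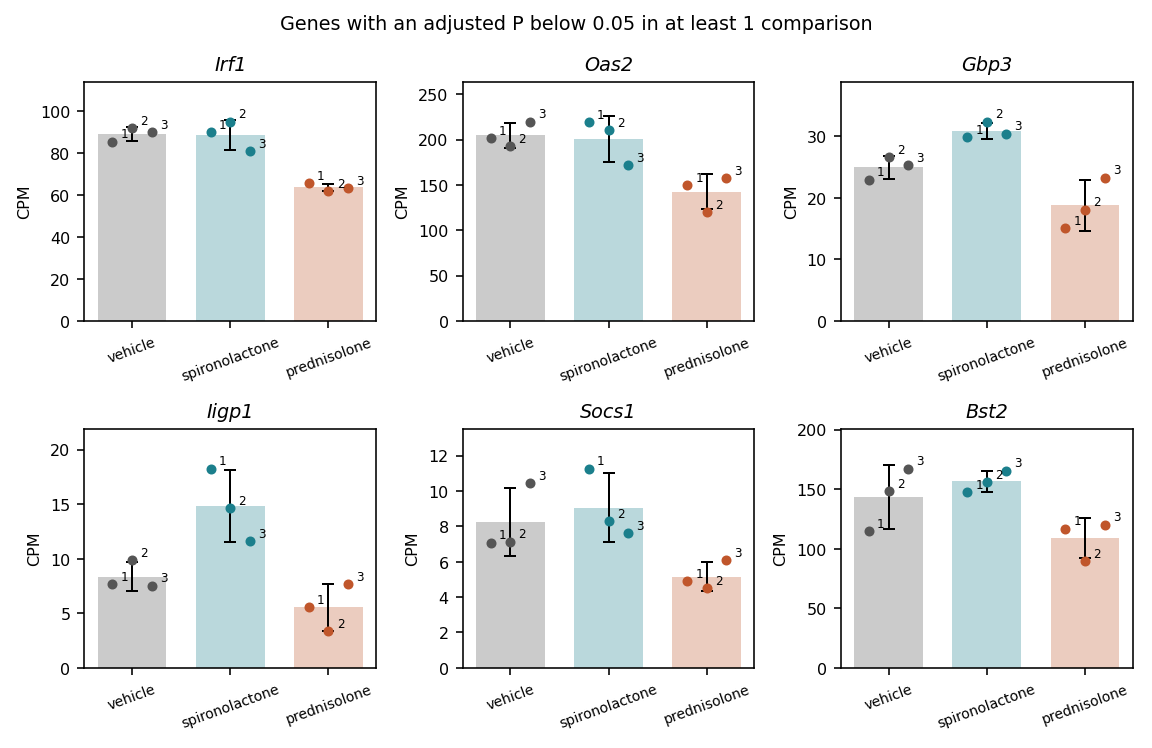
CPM of the 6 genes with an adjusted P below 0.05 in at least 1 comparison; points are libraries 1 to 3 of each group, bars are group means, and error bars are SD (n = 3). Prednisolone libraries lie below all spironolactone libraries in each panel, and below all vehicle libraries for *Irf1*, *Oas2*, and *Socs1*.

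The guanylate-binding proteins attack the vacuoles and membranes of intracellular microbes. *Gbp3* (chr3:142265731-142278979, + strand, GRCm39) stood at 23.0, 26.6, and 25.2 CPM in vehicle, 29.8, 32.4, and 30.4 CPM in spironolactone, and 15.1, 18.1, and 23.3 CPM in prednisolone libraries. Spironolactone libraries were the highest 3 of the 9, and only prednisolone 3 reached into the vehicle range. *Gbp3* was 1.64-fold higher with spironolactone than with prednisolone (log2 fold change 0.71, adjusted P = 0.0105). It lay between the drugs in vehicle, with log2 fold changes of 0.31 for spironolactone (unadjusted P = 0.0400, adjusted P = 0.510 by edgeR) and -0.41 for prednisolone (adjusted P = 0.173). Without prednisolone 2 the difference between the drugs had an adjusted P of 0.0612.

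*Gbp2*, the most abundant of the group per length, stood at 39.9, 59.3, and 62.0 CPM in vehicle, 52.9, 70.3, and 52.7 CPM in spironolactone, and 37.6, 30.2, and 47.4 CPM in prednisolone libraries. Spironolactone lay above prednisolone in all 3 libraries, and vehicle overlapped both. *Gbp5*, which also promotes inflammasome assembly, stood at 19.2, 20.5, and 22.6 CPM in vehicle, 29.3, 24.8, and 17.1 CPM in spironolactone, and 15.6, 11.1, and 20.2 CPM in prednisolone libraries. In *Gbp5* all 3 groups overlapped. Between the drugs the log2 fold changes were 0.61 (*Gbp2*, adjusted P = 0.107) and 0.60 (*Gbp5*, adjusted P = 0.135).

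The immunity-related GTPases, a family large in mice, coat such vacuoles too. *Iigp1* (Irga6, chromosome 18) showed the largest difference between the drugs of the 42. It stood at 7.66, 9.89, and 7.54 CPM in vehicle, 18.3, 14.6, and 11.7 CPM in spironolactone, and 5.56, 3.39, and 7.66 CPM in prednisolone libraries. Spironolactone was above the other groups in every library, and prednisolone 3 reached the level of vehicle 1. *Iigp1* was 2.68-fold higher with spironolactone than with prednisolone (log2 fold change 1.42 ± 0.26 SE, adjusted P = 0.0105). Against vehicle its log2 fold change was 0.83 ± 0.25 with spironolactone (unadjusted P = 0.00680, adjusted P = 0.283 by edgeR) and -0.59 with prednisolone. Without prednisolone 1 the adjusted P between the drugs was 0.0529.

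*Ifi47* (Irgd), the most abundant of this family per length, stood at 38.4, 48.0, and 68.4 CPM in vehicle, 68.5, 58.1, and 43.8 CPM in spironolactone, and 35.1, 22.8, and 40.5 CPM in prednisolone libraries. Spironolactone was above prednisolone in all 3 libraries. Its log2 fold change between the drugs was 0.79 (adjusted P = 0.139). *Irgm1* and *Igtp* (Irgm3), regulators of the family, gave 0.46 and 0.50, also with no overlap between the drugs. *Igtp* overlaps *Irgm2*, and *Ifi47* overlaps *Or2v1*, on the same strand, so that their counts are less certain.

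Among the 11 other antiviral effectors only *Bst2* passed the test, and only between the drugs. *Bst2* (chr8:71986895-71990114, - strand, GRCm39) stood at 115, 148, and 167 CPM in vehicle, 148, 156, and 166 CPM in spironolactone, and 117, 89.5, and 120.3 CPM in prednisolone libraries. All spironolactone libraries were above all prednisolone libraries, and vehicle 1 lay among the latter. *Bst2* was 1.44-fold higher with spironolactone (log2 fold change 0.52, adjusted P = 0.0474). Its log2 fold change with spironolactone against vehicle was 0.13, which turned to -0.01 without vehicle 1. With prednisolone against vehicle *Bst2* had -0.40 (adjusted P = 0.195), and -0.53 (adjusted P = 0.0178) without vehicle 1. That was the 1 of 9 fits leaving out a library in which this fall passed the threshold. Without prednisolone 2 its adjusted P was 0.547. The difference between the drugs missed the threshold without any 1 of prednisolone 1, 2, and 3 (0.106, 0.175, and 0.0715), spironolactone 1, 2, and 3 (0.0662, 0.113, and 0.161), or vehicle 2 (0.0630), and with library totals (0.0506) or robust=FALSE (0.0543).

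*Ifitm3* stood at 307, 649, and 632 CPM in vehicle, 438, 536, and 514 CPM in spironolactone, and 457, 338, and 462 CPM in prednisolone libraries. Vehicle 1 was the lowest of all 9 libraries, so that all groups overlapped. The log2 fold change of *Ifitm3* was -0.34 with prednisolone (adjusted P = 0.631). Without vehicle 1 it was -0.61 (adjusted P = 0.0160), the 1 of 9 fits leaving out a library that passed the threshold. Without vehicle 2 the adjusted P was 0.904. *Isg15*, a ubiquitin-like modifier, had 35.8, 57.5, and 102 CPM in vehicle, 77.6, 71.3, and 55.5 CPM in spironolactone, and 49.3, 22.3, and 44.3 CPM in prednisolone libraries. The range within vehicle alone was larger than the difference between any group means. *Rsad2* (viperin), which makes a chain-ending nucleotide, had the most negative log2 fold change with prednisolone, -0.85 ± 0.49 (SE), and also the most negative with spironolactone, -0.36 ± 0.49, and neither passed the test. *Xaf1*, *Ifi35*, *Ifi44*, *Isg20*, *Cmpk2*, *Trim30a*, and *Parp14* had log2 fold changes between -0.57 and -0.20 with prednisolone.

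**Figure D4:**
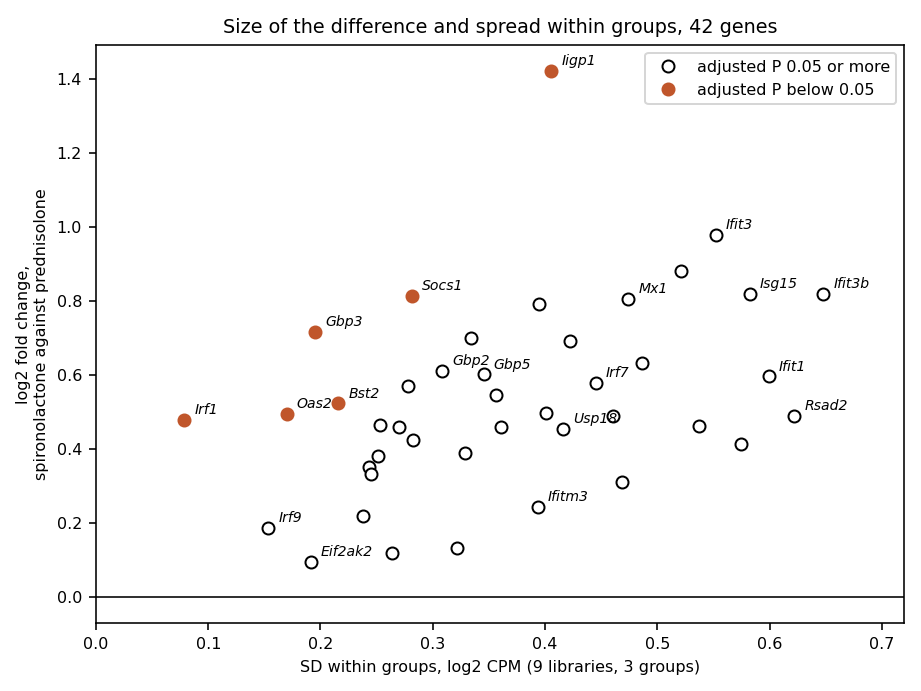
Log2 fold change of spironolactone against prednisolone (vertical axis) against the SD within groups of log2 CPM (horizontal axis) for the 42 genes, with filled points for an adjusted P below 0.05. The filled points lie between SD 0.0785 (*Irf1*) and 0.406 (*Iigp1*), and the IFIT genes with differences up to 0.98 lie to the right of them.

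The genes differed in spread within groups as well as in size of change. The SD within groups of log2 CPM had a median of 0.351 over the 42 genes and 0.216 over all genes tested. It ran from 0.0785 in *Irf1* to 0.648 in *Ifit3b*, with 0.622 in *Rsad2*, 0.599 in *Ifit1*, and 0.582 in *Isg15*. The 6 genes that passed the test had SDs of 0.0785 (*Irf1*), 0.170 (*Oas2*), 0.195 (*Gbp3*), 0.216 (*Bst2*), 0.282 (*Socs1*), and 0.406 (*Iigp1*). *Irf9* (0.154) and *Eif2ak2* (0.191) were as tight but differed little between the drugs.

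The genes moved together from library to library. After the group means were taken off, the median Pearson r over the 861 pairs of genes was 0.81, and 32 of 42 had an r over 0.8 with the mean of the other 41. This is a description over 9 libraries that share normalization, with no test. *Ifit3b* (0.998), *Ifi47* (0.993), and *Oasl1* (0.991) followed the rest most closely, and *Gbp3* (0.281) and *Irf1* (0.538) least. Among the other 16576 genes, 1.83% had an r over 0.8 with the mean of the 42, and among 42 further interferon-stimulated genes 24 did, *Slfn5* (0.991), *Slfn8* (0.991), *Tor3a* (0.976), and *Rtp4* (0.969) among them.

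The mean of the 42 on the log2 CPM scale was 5.85, 6.21, and 6.58 in vehicle 1, 2, and 3. It was 6.50, 6.31, and 6.04 in spironolactone 1, 2, and 3, and 5.87, 5.33, and 6.01 in prednisolone 1, 2, and 3. Vehicle 1 lay at the level of prednisolone 1, and prednisolone 2 stood below all others. Vehicle overlapped both drugs. Spironolactone lay above prednisolone by a narrow margin (6.04 in spironolactone 3, 6.01 in prednisolone 3), and these overlapped with library totals in place of TMM. Within a group the SD came to 0.37 (vehicle), 0.23 (spironolactone), and 0.36 (prednisolone). Vehicle 1 was the lowest vehicle library for 38 of the 42 genes, and prednisolone 2 the lowest prednisolone library for 41.

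Upstream of these genes, the interferon genes themselves were under 1 CPM in every library. None of the 10 interferon genes looked at passed the filter on low counts. *Ifnb1*, interferon beta, had 15, 27, and 8 counts in vehicle 1, 2, and 3, 4, 2, and 1 counts in spironolactone 1, 2, and 3, and 0 in each prednisolone library. Every vehicle library was above every drug-treated library. Every spironolactone library was above every prednisolone library, but at 1 to 4 counts against 0 the drugs could not be told apart at this depth. Over the group, prednisolone had 0 counts against 50 in vehicle. With a floor of 3 counts over the group in place of the 0, vehicle was 16.8-fold higher. That ratio takes no account of error in the vehicle counts. Vehicle was 6.97-fold higher than spironolactone (7 counts, exact 95% interval 3.14 to 18.2, counting error only). The exact permutation test of CPM over libraries (two-sided) gave P = 0.1 for each drug against vehicle and also between the drugs. This is the smallest P that 3 against 3 libraries allow. At these depths 3 counts equal 0.0891 to 0.0950 CPM. *Ifng*, interferon gamma, made mostly by T and NK cells, was at 0 to 0.158 CPM.

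**Figure D5:**
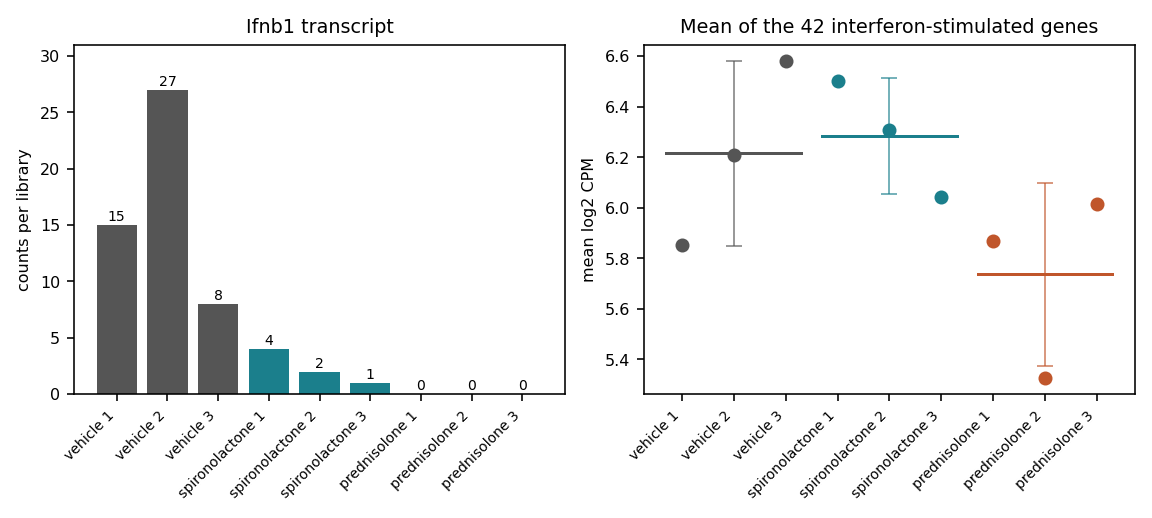
Left, counts of *Ifnb1* in each of the 9 libraries (bars start at 0). Right, mean log2 CPM of the 42 interferon-stimulated genes in the same libraries, with lines for group means and error bars for SD (n = 3). *Ifnb1* runs from 27 counts in vehicle 2 to 0 in all prednisolone libraries, while the mean of the 42 in vehicle overlaps both drugs and spironolactone 3 lies just above prednisolone 3.

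None of 6 receptor genes passed the test, and 5 were well expressed. *Ifnar1* stood at 158 to 198 CPM over the 9 libraries, *Ifnar2* at 169 to 208, *Ifngr1* at 143 to 200.3, *Ifngr2* at 178 to 228, and *Il10rb*, the shared chain of the interferon lambda receptor, at 249 to 304. *Ifnlr1*, the chain specific to interferon lambda, was at 0.218 to 4.92 CPM, with the lowest and the highest value both in vehicle, and log2 fold changes of -0.63 ± 1.02 (SE) with prednisolone and 0.63 ± 1.02 between the drugs. All 3 prednisolone libraries were below vehicle and spironolactone for *Ifnar2* (log2 fold change -0.19, adjusted P = 0.310 by edgeR). Of 8 kinases and further IRF genes, 1 passed the test, between the drugs (2.38% of all genes called higher). *Irf8*, the factor of monocyte and dendritic cell fate, stood at 277, 275, and 246 CPM in vehicle, 282, 284, and 310.1 CPM in spironolactone, and 209, 204, and 228 CPM in prednisolone libraries. The groups did not overlap, in the order prednisolone, vehicle, spironolactone. *Irf8* was higher with spironolactone than with prednisolone (log2 fold change 0.45, adjusted P = 0.0129), except without prednisolone 1 (0.0633), prednisolone 2 (0.0773), or spironolactone 3 (0.0663).

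None of 10 sensors and adaptors upstream of interferon passed the test in any comparison. Of 8 negative regulators tested, *Irf2bp2*, a corepressor that partners IRF2, fell with prednisolone (0.758% of all genes called lower). It stood at 301, 278, and 254 CPM in vehicle, 232, 217, and 227 CPM in spironolactone, and 192, 180.2, and 181 CPM in prednisolone libraries. Each prednisolone library was below each spironolactone library, and these below vehicle. The log2 fold change of *Irf2bp2* with prednisolone was -0.59 (adjusted P = 0.00455). Spironolactone gave -0.30 (adjusted P = 0.234).

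A list of 45 further interferon-stimulated genes, of which 42 were tested, was also chosen with earlier results of these data known. It gave a median log2 fold change of -0.34 with prednisolone, 0.03 with spironolactone, and 0.33 between the drugs. With prednisolone 39 of 42 were below 0 (52.2% of all genes) and 2 fell, *Cd274* and *Gbp8* (0.758% of all genes called lower). *Cd274*, the checkpoint ligand PD-L1, stood at 74.4, 61.6, and 71.2 CPM in vehicle, 55.1, 47.0, and 42.7 CPM in spironolactone, and 38.5, 34.1, and 33.5 CPM in prednisolone libraries. The 3 groups did not overlap. The log2 fold change of *Cd274* with prednisolone was -0.97 (adjusted P = 0.00116), and it passed in all 9 fits that left out a library. Spironolactone gave -0.52 (adjusted P = 0.128).

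*Gbp8*, another guanylate-binding protein, stood at 4.35, 5.58, and 3.18 CPM in vehicle, 5.54, 6.16, and 4.69 CPM in spironolactone, and 1.18, 1.47, and 2.52 CPM in prednisolone libraries. Prednisolone lay below all other libraries. *Gbp8* fell with prednisolone (log2 fold change -1.34, adjusted P = 0.0362), but not past the threshold without prednisolone 1 (0.146), prednisolone 2 (0.189), vehicle 2 (0.146), or spironolactone 2 (0.0565), or with limma-voom (0.0595) or a fit of only the 2 groups (0.0776). Between the drugs 39 of 42 were above 0 (53.4% of all genes) and 4 were higher with spironolactone, *Gbp4*, *Gbp8*, *Cd274*, and *Ciita* (2.38% of all genes called higher). *Gbp4* stood at 6.78, 10.7, and 7.79 CPM in vehicle, 17.0, 11.7, and 9.47 CPM in spironolactone, and 4.59, 2.75, and 4.72 CPM in prednisolone libraries. Its log2 fold change with prednisolone against vehicle was -1.06 (adjusted P = 0.0660 by edgeR, 0.00425 with DESeq2). That difference passed the threshold in 2 of 9 fits that left out a library, without vehicle 1 (0.0308) or spironolactone 1 (0.0356). Without prednisolone 2 the adjusted P was 0.251. Between the drugs the log2 fold change of *Gbp4* was 1.66 (adjusted P = 0.00496), with an adjusted P under 0.05 in all 9 fits that left out a library. *Gbp8* had 1.66 (adjusted P = 0.00784, and 0.0510 without prednisolone 2).

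*Ciita*, the class II transactivator, stood at 88.6, 73.9, and 64.9 CPM in vehicle, 93.8, 128, and 109.9 CPM in spironolactone, and 84.1, 74.8, and 76.9 CPM in prednisolone libraries. Spironolactone libraries were the highest 3, and vehicle and prednisolone overlapped. *Ciita* had a log2 fold change of 0.49 between the drugs (adjusted P = 0.0416) and 0.05 with prednisolone against vehicle, which was -0.05 without vehicle 3. The difference between the drugs missed the threshold without prednisolone 1, 2, or 3 (0.0925, 0.153, and 0.124), spironolactone 2 or 3 (0.148 and 0.112), or vehicle 2 (0.0532), and with limma-voom (0.0509), or library totals (0.0561), and narrowly with robust=FALSE. *Cd274* between the drugs (log2 fold change 0.45, adjusted P = 0.0343) missed it without prednisolone 1, 2, or 3 (0.0646, 0.134, and 0.126), spironolactone 1 or 2 (0.0946 and 0.0809), or with library totals (0.0541).

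Markers of other cells moved with the same comparison of the drugs. Of all genes tested, 2.38% were called higher with spironolactone than with prednisolone, and 5.17% in either direction. The summed level of 8 T and NK cell markers was 14.9 to 21.4 CPM in spironolactone, 5.78 to 10.2 CPM in prednisolone, and 6.29 to 11.3 CPM in vehicle libraries, with *Gzma*, *Gzmb*, *Nkg7*, and *Ncr1* higher with spironolactone than with prednisolone. Endothelial markers (6 genes) summed to 108 to 168 CPM in spironolactone, 62.3 to 86.3 CPM in prednisolone, and 49.1 to 85.3 CPM in vehicle libraries, with *Pecam1* and *Cdh5* higher with spironolactone than with prednisolone. Erythroid markers (5 genes) summed to 156 to 264, 31.5 to 70.3, and 60.9 to 118 CPM in the same order, with 3 of the 4 tested higher with spironolactone than with prednisolone. Monocyte markers (6 genes) summed to 1494 to 1761 CPM with spironolactone, 2065 to 2805 CPM with prednisolone, and 1096 to 2567 CPM in vehicle, where vehicle 1 was lowest, but 3 of the 6 had a log2 fold change above 0 between the drugs, and none passed the test. Macrophage markers (8 genes) summed to 8759 to 9562 CPM with spironolactone, 6974 to 7662 CPM with prednisolone, and 7602 to 8926 CPM in vehicle, with *C1qb* and *C1qc* higher with spironolactone than with prednisolone and 3 of the 8 below 0 in that comparison. Neutrophil markers (7 genes) summed to 992 to 2063 CPM with spironolactone, 747 to 946 CPM with prednisolone, and 654 to 2850 CPM in vehicle, where vehicle 3 was highest, and none of the 7 passed the test. B cell markers (4 genes) summed to 8.76 to 12.03, 3.85 to 6.36, and 6.46 to 8.41 CPM in the same order, with *Cd79a* and *Cd79b* higher with spironolactone than with prednisolone. Dendritic cell markers (6 genes) summed to 337 to 513, 564 to 733, and 376 to 398 CPM, with *Itgax* lower with spironolactone than with prednisolone (log2 fold change -0.68) and higher with prednisolone than with vehicle (0.80). *Itgax* made up most of that sum, and 4 of the 6 had a log2 fold change above 0 between the drugs (median 0.14). In each of these 8 lists the sums of the drugs did not overlap, while those of fibro-adipogenic, skeletal muscle, and plasmacytoid dendritic markers did. The summed level of the gate genes *Ptprc* and *Itgam* did not overlap between the drugs either. It was 1523 to 1793 CPM with spironolactone, 1858 to 2146 CPM with prednisolone, and 1698 to 1948 CPM in vehicle. *Itgam* was lower with spironolactone than with prednisolone. With prednisolone against vehicle, 6 of 7 neutrophil, 6 of 8 macrophage, 7 of 8 T and NK, and 4 of 4 B cell markers were below 0. So were 4 of 4 tested erythroid markers, beside 52.2% of all genes. In that comparison 5 of 6 dendritic, 5 of 6 skeletal muscle, 4 of 5 fibro-adipogenic, and 4 of 6 endothelial markers were above 0. Among all these markers only *Itgax* passed the test there. No marker of these lists was at 0 in all libraries. Their part in the differences of the interferon-stimulated genes was not tested.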

How the data were processed

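RNA-Seq counts of sorted CD45+CD11b+ quadriceps cells from *mdx* mice were used, 9 libraries in 3 groups. Deposited values are whole-number counts per gene, which the authors obtained by aligning reads to mm39 with HISAT2 2.2.1 and counting them with HTSeq 0.11.3 (versions from the submitters' processing notes). The annotation release and strand setting are not given in the sources used here. Deposited tables of the authors' own fold changes and P values (DESeq2 1.32.0) were not used. Lines that name no gene (17.2% to 21.8% of the counted reads) were left out.

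Genes were tested with the quasi-likelihood test of edgeR 4.0.16 (R 4.3.3, limma 3.58.1, TMM, robust=TRUE, filterByExpr with a minimum count of 10 and total of 15, a single fit of all 9 libraries). Tests were two-sided, and P values were adjusted by Benjamini-Hochberg over 16618 genes, with a threshold of 0.05. An adjusted P under 0.05 is a call. Libraries held 31469815 to 32943512 counts, and the spread between pools outweighs counting error for the 42 genes. TPM used summed exon lengths of GENCODE genes on GRCm39, and log2 CPM a prior count of 2.

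The genes, their roles, and the pathway and marker lists were chosen with earlier results of these data known. Named with values in every library were genes called in any comparison, the 4 with the smallest P in each, and the most abundant by TPM in each role. *Isg15* and *Rsad2* were added after their values were seen. Of the pathway, *Ifnb1*, *Ifng*, the receptors, and genes called were named, and 1 gene is not reported here. Alternatives were DESeq2 1.42.0, limma-voom, 2 groups only, RLE, library totals, robust=FALSE, no filter or a floor of 10 counts per library, a prior count of 0.5, a replicate block, and leaving out each library. The fits were also run on simulated data, and no statement here rests on that. Pools share no animal as far as the labels say, and P values measure the spread between these pools.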

Additional observations from a re-analysis of the deposited data

How the results depend on the processing

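Of 46 fold changes of named genes under 18 alternatives each, 733 values kept their direction and side of the threshold, 61 lost the call, 32 gained it, and 2 turned sign, *Ciita* with prednisolone (-0.0455 without vehicle 3, and up to 0.179 without vehicle 1) and *Bst2* with spironolactone (-0.0140 without vehicle 1, and up to 0.246 without vehicle 3). For prednisolone against vehicle, 1 gene of the 42 was called with a fit of 2 groups, library totals, or robust=FALSE (1.5% to 1.79% of all genes), 32 with no filter on low counts (3.43%), and 0 to 6 when a library was left out (0.402% to 4.83%). For spironolactone against vehicle, the count was 2 with no filter (*Iigp1* higher, *Rsad2* lower, beside 1.78% of all genes) and 0 otherwise. For spironolactone against prednisolone, it was 10 with DESeq2 (10.5% of all genes), 7 with a fit of 2 groups (9.98%), 5 with limma-voom or robust=FALSE (4.95% and 4.96%), 4 with library totals (5.52%), 34 with no filter (6.52%), and 1 to 8 when a library was left out (1.35% to 11.1%). With no filter the edgeR fit on 29739 genes set the prior degrees of freedom to infinity (with the filter, a median of 7.76 over all genes and 4.16 over the 42), so that each gene's own spread no longer counted, and the median SE of the 42 with prednisolone dropped from 0.23 to 0.11. The same fit, added after the data were seen, gave *Ifnb1* an adjusted P of 0.000387 for prednisolone against vehicle. It gave 0.254 for spironolactone against vehicle and 0.123 between the drugs. Genes with all treated libraries outside the vehicle range numbered 8 to 34 for prednisolone and 2 to 4 for spironolactone when a vehicle library was left out, beside 27.4% to 40.5% and 21.8% to 27.4% of all genes (19.7% and 13.5% with all libraries). The replicate numbers do not pair libraries (correlations of same-numbered libraries -0.04 to 0.15), and with the replicate block the counts were 2, 0, and 6. The median log2 fold change of the 42 ran from -0.64 to -0.30 for prednisolone against vehicle, from -0.13 to 0.24 for spironolactone against vehicle, and from 0.34 to 0.60 between the drugs when a library was left out. All 42 passed the filter on low counts at this depth, while all interferon genes looked at were below it. Whether more depth would change the calls was not tested.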
